A study of Homo sapiens with 6 samples.

Results

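The ZRSR2 knockdown libraries of K562 cells, 4 of the 6 libraries in the series, were compared by the experiment they came from. K562 is an established human erythroleukaemia line. Cells carried 1 of 2 short hairpin RNAs against ZRSR2 (sh1 or sh2) or a control hairpin (Con_sh), and each of the 3 hairpins was used once in Exp1 and once in Exp2. The knockdown libraries of Exp1 (sh1 and sh2) were set against those of Exp2 (sh1 and sh2), and the Con_sh library of each experiment gave the difference seen without knockdown. All cells were grown in the same serum-containing medium, and polyA-selected RNA was sequenced. The labels give no dates, no knockdown times and no statement that the 2 experiments were separate cultures, so Exp1 and Exp2 are used only as the titles name them.

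ZRSR2 is a protein of the minor spliceosome, where it helps recognise the 3′ splice site of U12-type introns. These introns are rare, are removed by a separate set of small nuclear ribonucleoproteins, and sit in genes of DNA repair, cell cycle control, signalling and RNA processing. Loss of ZRSR2 function is known in myelodysplastic syndromes, and retention of U12-type introns is the change best known to follow it.

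The tables list 241593 introns with 3 counts each: reads across the left boundary, reads across the right boundary, and spliced reads that skip the intron. Retention is the percentage of boundary reads among boundary reads plus 2 times the spliced reads. Only introns whose 3 counts together averaged 50 or more over the libraries were used, which kept 116705. Total spliced reads ran from 82986327 to 101120454 per library and boundary reads from 4387311 to 5199693. The sum of spliced reads over a gene's non-overlapping introns, scaled to library size (counts per 1e+06, CPM), gave the level of 17597 genes. All 21 measured genes of an erythroid list reached 1 CPM in at least 1 library, EPB42 only in sh2 Exp1. So did all 6 measured megakaryocytic genes. Of the measured myeloid genes 3 of 8 stayed under 1 CPM in every library, as did 1 of 7 lymphoid and 1 of 10 stromal or epithelial genes. These counts alone do not tell the cell type.

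ZRSR2 itself was reduced in all 4 knockdown libraries, to 38.6% of the same experiment's control with sh1 and 36.9% with sh2 in Exp1, and to 45.7% with sh1 and 54.7% with sh2 in Exp2. Its level was 27.6 CPM in Con_sh Exp1 and 23.4 CPM in Con_sh Exp2, from 2218 and 2173 reads. It was 10.7 CPM (825 reads) in sh1 Exp1, 10.2 CPM (821 reads) in sh2 Exp1, 10.7 CPM (983 reads) in sh1 Exp2 and 12.8 CPM (1003 reads) in sh2 Exp2. The knockdown libraries therefore lay well below both controls, and those of Exp1 did not lie clearly below those of Exp2. The mean residual level was 37.7% in Exp1 and 50.2% in Exp2, and the Exp1 control was the higher of the controls.

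The fitted log2 difference of ZRSR2 between the knockdown experiments was -0.17 (SE 0.17), with an adjusted p of 0.69 by edgeR's quasi-likelihood test. Relative to the controls, the log2 difference of ZRSR2 was -1.41 (SE 0.20) in Exp1 and -0.99 (SE 0.20) in Exp2. Neither passed edgeR's test, whose lowest adjusted p over all genes was 0.17 in Exp1 and 0.27 in Exp2. The difference of these effects was -0.41 (SE 0.30) with an adjusted p of 0.95. As the test did not call the knockdown of ZRSR2 itself, it cannot decide whether the knockdown differed between the experiments. An exact permutation test of 2 libraries against 2 cannot go below 0.333, which is the two-sided value it gave. In bulk libraries, a smaller share of transduced cells and a weaker knockdown in each cell cannot be told apart.

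**Figure D1:**
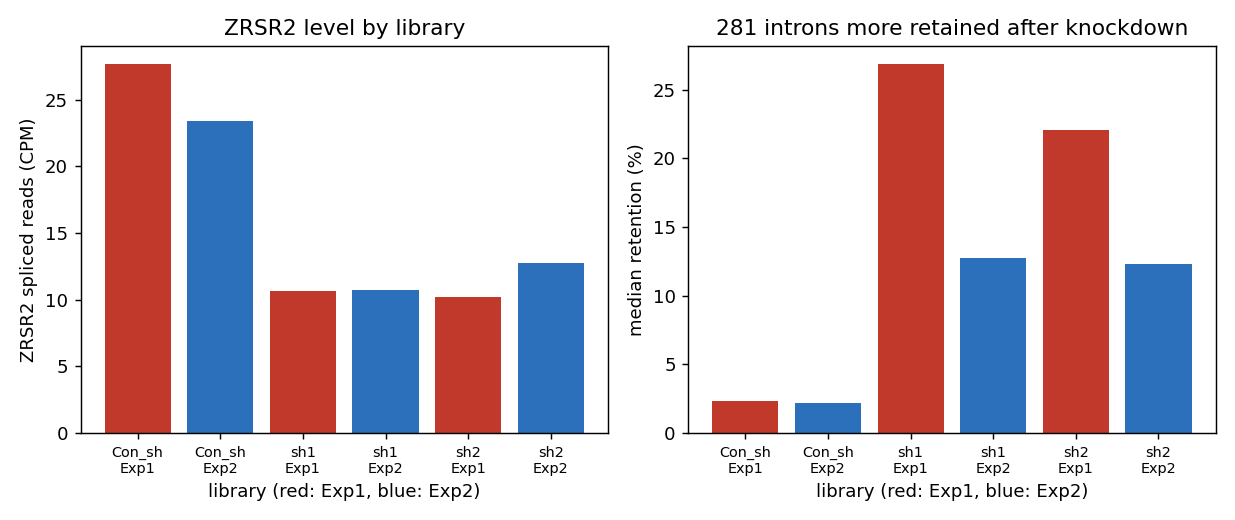
ZRSR2 level in CPM (left) and median retention in percent of the 281 introns more retained after knockdown (right), as 1 bar per library, red for Exp1 and blue for Exp2. The 4 knockdown libraries hold similar ZRSR2 levels, 10.2 to 12.8 CPM, while their median retention is 26.8% and 22.1% in Exp1 and 12.7% and 12.3% in Exp2.

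Introns retained after ZRSR2 knockdown were retained about as rarely in both controls and about 2 times as often in the knockdown libraries of Exp1 as in those of Exp2. Over both experiments, edgeR's quasi-likelihood test of boundary against spliced reads found 281 introns in 223 genes more retained and 7 less retained with knockdown than with the control (0.241% called higher and 0.247% in all, at a Benjamini-Hochberg adjusted p under 0.05). In the controls their median retention came to 2.36% (Con_sh Exp1) and 2.22% (Con_sh Exp2). It was 26.8% in sh1 Exp1 and 22.1% in sh2 Exp1, against 12.7% in sh1 Exp2 and 12.3% in sh2 Exp2. The means of the library medians were 24.4% ± 3.38 in Exp1 and 12.5% ± 0.272 in Exp2 (SD, n = 2 each), and the 2 knockdown groups did not overlap. With an experiment block the test called 477 introns in place of 288. It called 90 without Con_sh Exp1 and 42 without Con_sh Exp2.

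The direction was shared by nearly all of them. The fitted difference between the knockdown experiments was above 0 in all 281 introns, against 57.4% of all tested introns. Both Exp1 knockdown libraries lay above both Exp2 knockdown libraries in 252 of the 281 introns and below both in 0, where 23.2% and 12.8% of all tested introns did so. Within a hairpin, retention was higher in Exp1 in 281 of 281 introns for sh1 and in 278 of 281 for sh2. The median ratio of Exp1 to Exp2 retention was 2.11 for sh1 and 1.69 for sh2, and 1.06 for Con_sh. Con_sh Exp1 was the higher control in 157 of the 281 introns, or 55.9%, against 43.9% of all tested introns.

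The median log2 difference between the knockdown experiments was 1.19 over the 281 introns and 0.14 over all tested introns, which leaves 1.05 relative to the general shift between libraries. The interquartile range of the 281 was 0.91 to 1.49. The difference was smallest in an intron of MYSM1, a histone H2A deubiquitinase, at 0.27, and largest in an intron of WDR41, a partner of C9orf72, at 2.36. Relative to the same experiment's control, the 281 introns had a median log2 difference of 3.45 in Exp1 and 2.31 in Exp2. These sizes were measured on the libraries that chose the introns, so they are a description. The 2 effects share no library, and across the 281 introns their Pearson correlation was 0.55 and their Spearman correlation 0.67, as a description. Over all tested introns the Pearson correlation was 0.025.

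The effect of knockdown was larger in Exp1 in 258 of 281 introns (91.8%), against 56.8% of all tested introns, with a median log2 difference of effects of 1.08. Of the 281, 0 passed edgeR's test of that difference (0.006% of all introns did, and 4950 were at an unadjusted p under 0.05). Each experiment has 1 control library, which was assumed to vary like the others. A control library held 0 boundary reads at 10 of the 281 introns, where the fitted sizes depend on the prior count. Over the other 271 introns the median difference of effects was 1.08, and it was above 0 in 251.

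**Figure D2:**
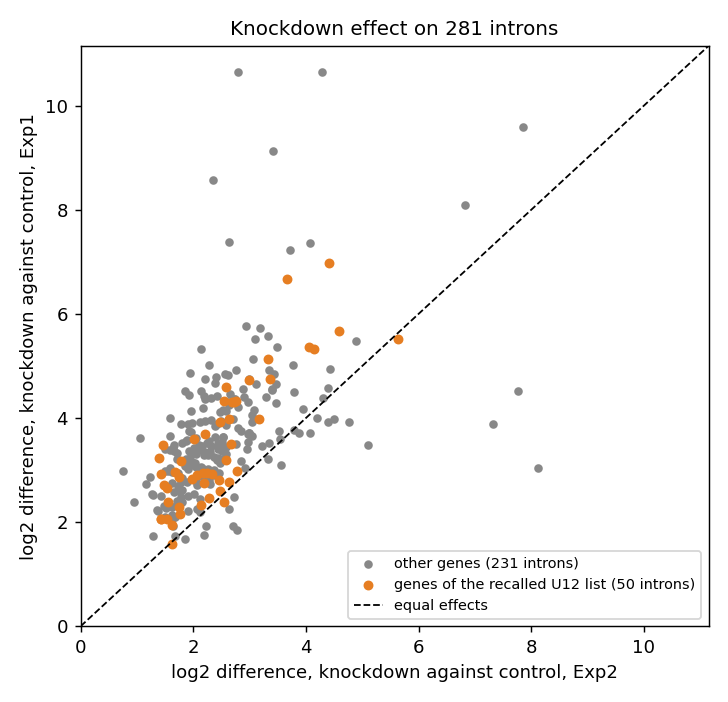
Log2 difference in boundary against spliced reads between knockdown and control in Exp1 (vertical) and Exp2 (horizontal), with 1 point for each of the 281 more retained introns, orange for genes of the recalled U12 list, and a dashed line where the effects are equal. Of the 281 points 258 lie above the line.

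Both ends of the introns took part. Left-boundary retention was higher in Exp1 with both hairpins in 270 of the 281 introns and right-boundary retention in 276, where 26.8% and 27.1% of all tested introns did so. When the introns were ranked into 3 groups by control retention, the median log2 difference between the knockdown experiments was 1.29 in the lowest group, 1.23 in the middle one and 1.05 in the highest. The mean of the library medians in the lowest group was 9.62% ± 3.26 in Exp1 and 4.12% ± 0.315 in Exp2, and in the highest group 44.7% ± 3.86 and 25.5% ± 0.514 (SD, n = 2 each). By intron length the medians of the log2 difference were 1.06, 1.29 and 1.29, from the shortest to the longest group. Median retention was higher in both Exp1 knockdown libraries than in both of Exp2 in each of these groups.

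A list of 55 genes with a U12-type intron, written from memory, gave 50 of the 281 introns, in 37 genes. It was not derived from sequence, and earlier results of these data were known when it was written. Of its 54 tested genes, 40 had an intron raised over control in Exp1 and 18 had one in Exp2, where 2.77% and 0.922% of all 12143 genes with a tested intron did. The 50 introns had a median retention of 2.81% and 2.88% in the controls of Exp1 and Exp2. Their median was 29.9% and 27.0% in the Exp1 knockdown libraries and 13.7% and 15.0% in those of Exp2. The median log2 difference between the knockdown experiments was 1.19 in these 50 introns and 1.19 in the 231 introns of other genes.

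Introns of CDC45, PARP1 and XRCC5 were more retained in both Exp1 than in both Exp2 knockdown libraries. An intron of CDC45, a subunit of the replicative helicase (chromosome 22, 19505482 to 19507385, plus strand), was retained at 6.22% and 4.26% in the controls of Exp1 and Exp2. In knockdown it reached 45.3% in sh1 Exp1 and 44.9% in sh2 Exp1, against 16.7% in sh1 Exp2 and 21.4% in sh2 Exp2, and the difference passed the edgeR test with an adjusted p of 0.0015, or 0.071 without sh1 Exp2. An intron of PARP1, the poly(ADP-ribose) polymerase that answers DNA breaks (chromosome 1, 226361542 to 226361968, minus strand), was at 1.07% and 1.06% in the controls. It was at 32.6% and 29.6% in the Exp1 knockdown libraries and at 15.2% and 15.1% in those of Exp2. The 2 groups did not overlap, and the log2 difference of 1.33 (SE 0.31) missed the threshold with an adjusted p of 0.056 by edgeR. In XRCC5, which encodes the Ku80 end-binding protein, retention was 1.44% and 0.742% in the controls, 16.1% and 8.56% in Exp1 and 5.26% and 3.43% in Exp2, with an adjusted p of 0.027 by edgeR. The XRCC5 call was lost without sh1 Exp1 (adjusted p 0.35, edgeR) and without sh2 Exp2 (0.40).

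Introns of 4 further genes on the recalled list lay at different levels. An intron of FRA10AC1, a nuclear protein gene named for a fragile site (chromosome 10, 93694938 to 93698135, minus strand), was retained at 0.955% and 1.61% in the controls. It rose to 48.9% in sh1 Exp1 and 50.9% in sh2 Exp1, against 14.4% in sh1 Exp2 and 20.5% in sh2 Exp2, and its log2 difference between the knockdown experiments was 2.25 (SE 0.44), adjusted p 0.016 by edgeR. Without sh1 Exp2 that p was 0.47 and without sh2 Exp2 0.097. In EXOSC2, a core subunit of the RNA exosome, retention was 14.7% and 11.4% in the controls, 55.6% and 52.3% in Exp1 and 35.4% and 38.3% in Exp2. In POLR2E, a subunit shared by the nuclear RNA polymerases, it was 2.24% and 2.49%, 15.6% and 13.0%, and 7.29% and 8.55% in the same order. In THOC2, part of the TREX mRNA export complex, it was 18.7% and 7.23% in Exp1 and 6.54% and 3.37% in Exp2, so the lower Exp1 library lay only just above the higher Exp2 library. The differences of EXOSC2, POLR2E and THOC2 did not pass the test.

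Introns of E2F3 and E2F6, transcription factors of the cell cycle, were retained at 34.9% and 38.0% in sh1 Exp1, 24.9% and 17.8% in sh2 Exp1, 19.0% and 15.1% in sh1 Exp2 and 19.0% and 8.46% in sh2 Exp2. The UFD1 intron, in a gene for a cofactor of the p97 segregase, was at 30% and 32.8% in Exp1 and 15.3% and 20% in Exp2. The TMEM258 intron, in a gene for an oligosaccharyltransferase subunit, was at 29.7% and 32.7% in Exp1 and 15.6% and 19.3% in Exp2. In SRP68, of the signal recognition particle, the values were 7.27% and 6.26% in Exp1 and 2.31% and 3.02% in Exp2. ZNF207, a spindle assembly factor, held 2 such introns. The longer one, 1138 nt, was at 31.7% and 30.1% in Exp1 and 12.6% and 16.6% in Exp2 and passed the test (adjusted p 0.030, edgeR), with 0.068 to 0.52 when any 1 knockdown library was left out. In each of these introns both Exp1 knockdown libraries lay above both Exp2 knockdown libraries. Apart from the longer ZNF207 intron, none of them passed the test between the knockdown experiments (adjusted p 0.063 to 0.54, edgeR).

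**Figure D3:**
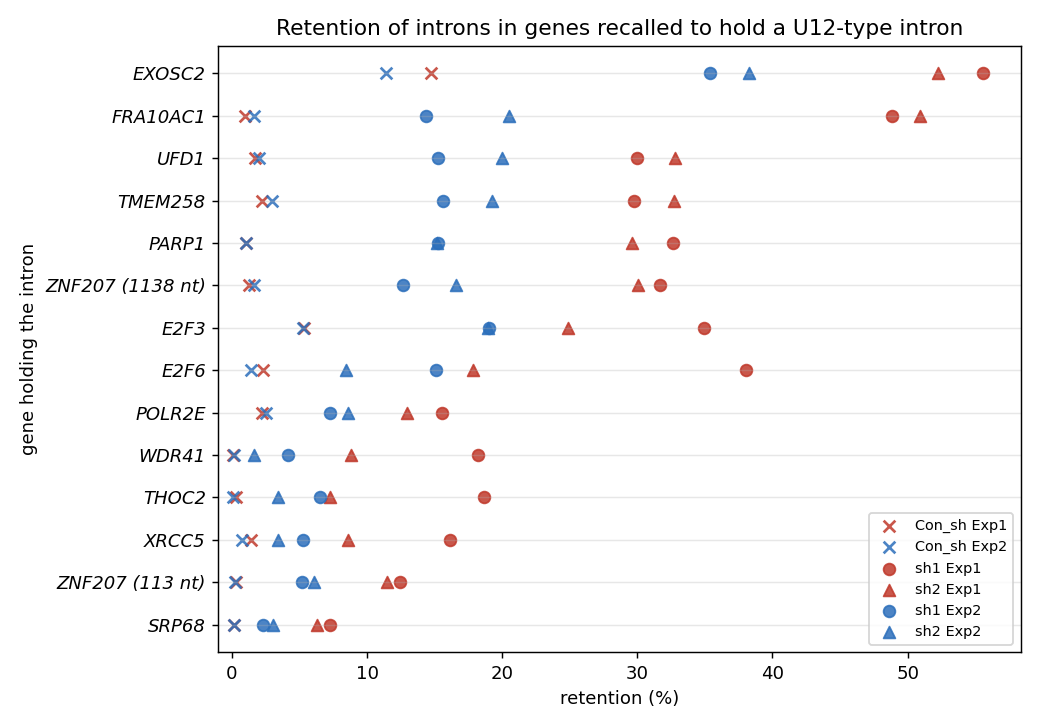
Retention in percent of 14 introns from genes of the recalled U12 list, with crosses for Con_sh, circles for sh1 and triangles for sh2, red for Exp1 and blue for Exp2. In each row both red knockdown points lie to the right of both blue ones, from SRP68 (7.27% and 6.26% against 2.31% and 3.02%) to EXOSC2 (55.6% and 52.3% against 35.4% and 38.3%).

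Of 8 named introns outside the recalled list, most but not all were more retained in both Exp1 than in both Exp2 knockdown libraries. In CCNT2, the cyclin T2 partner of CDK9, retention was 3.01% and 1.71% in the controls, 52.6% and 45.4% in the Exp1 knockdown libraries and 28.1% and 26.8% in those of Exp2. The GAK intron, in a gene for a clathrin-uncoating kinase, was at 40.6% and 39.1% in Exp1 and 25.9% and 24.0% in Exp2. In USP14, a proteasome-bound deubiquitinase, it was 19.5% and 12.3% against 6.85% and 7.01%. In RPL4, a ribosomal protein gene, it was 7.64% and 3.63% against 3.75% and 2.91%, so sh2 Exp1 lay just below sh1 Exp2. The TSPAN13 intron, in a tetraspanin gene, was at 10.4% and 9.83% against 4.21% and 4.64%, and that of ADAT2, a tRNA deaminase gene, at 29.4% and 27.4% against 18.3% and 21.9%. The intron of HBBP1, a globin pseudogene, was instead less retained with knockdown, at 21.4% and 14.8% in the controls, 1.81% and 0.705% in Exp1 and 1.97% and 1.60% in Exp2. Its log2 difference between the knockdown experiments was -0.70 (SE 0.38), and 0.020 without sh2 Exp1. The differences of these 7 genes did not pass the test between the knockdown experiments. SMPD4BP, at 42.3% and 37.4% against 27.9% and 31.1%, is a close copy of SMPD4, and reads of the pair cannot be told apart with certainty. The same holds for the SMPD4 intron among the 281.

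Knockdown against control gave more calls in Exp1 than in Exp2, and most introns raised in Exp2 were also raised in Exp1. In Exp1, 445 introns were more and 28 less retained with knockdown than with the control (0.405% called, 0.381% higher). In Exp2, 133 were more and 11 less retained (0.123% called, 0.114% higher). The 2 raised sets shared 120 introns, which is 27.0% of the Exp1 set and 90.2% of the Exp2 set. The 2 comparisons share no library in their differences. Both came from the same fit with a shared estimate of the spread per intron, so the 2 sets of calls are not independent. The 325 introns called only in Exp1 had a median log2 difference over control of 2.94 in Exp1 and 1.55 in Exp2, and 307 of them were above 0 in Exp2. The 13 called only in Exp2 had medians of 0.26 in Exp1 and 3.78 in Exp2, and in all 13 Con_sh Exp1 lay above Con_sh Exp2. Exp2 calls numbered 226 without sh1 Exp1, 225 without sh2 Exp1, 77 without sh1 Exp2 and 68 without sh2 Exp2. The Exp1 total of 473 was 725 and the Exp2 total of 144 was 258 with the hairpin as a block, and they were 176 and 6 with a newer quasi-likelihood method.

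Tested directly against each other, the knockdown experiments differed at 110 introns, 103 higher and 7 lower in Exp1 (0.0943% called, 0.0883% higher and 0.006% lower, 8884 introns at an unadjusted p under 0.05). Between the 2 controls 9 introns passed, 6 higher and 3 lower in Exp1 (0.00771% called, 5957 at an unadjusted p under 0.05). Of the 103 introns, 33 were among the 281 retained after knockdown, or 32.0%, where the 281 are 0.241% of introns tested. Of 27 introns named by rule that were called and tested in each fit, 3 kept their call whichever 1 knockdown library was left out. The number of calls depended on the method. It was 0 with the newer quasi-likelihood method, with the smaller boundary count doubled and among introns with a covered fraction of at least 0.95, 9 after centring on the median intron, and 650 with the hairpin as a block. It was 276 without sh1 Exp1, 150 without sh2 Exp1, 35 without sh1 Exp2 and 16 without sh2 Exp2. All 110 kept their direction in each of those fits that tested them, except 2 with the smaller boundary count doubled.

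The 33 shared introns had the higher read support, with a median of 1226 boundary reads over the 4 knockdown libraries. Their median retention was 1.48% and 1.66% in the controls, 26.5% and 24.6% in the Exp1 knockdown libraries and 9.24% and 8.71% in those of Exp2. They included introns of DONSON, a replication fork factor (40.1% and 25.5% against 13.9% and 10.4%), and of RFC5, a clamp loader subunit (30.7% and 29.2% against 10.5% and 9.94%). CHD4, the ATPase of the NuRD complex, had an intron at 17.7% and 12.8% in Exp1 and 6.13% and 5.63% in Exp2. MYH10, a non-muscle myosin heavy chain, had one at 53.5% and 67.2% against 23.4% and 31.0%. In NUP107, a nuclear pore gene, retention was 6.91% and 4.93% against 1.53% and 1.09%, with 0 boundary reads in Con_sh Exp1. DONSON, RFC5, CHD4 and MYH10 fell outside the naming rule and were chosen after their values were seen.

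The other 70 introns higher in Exp1 were of another kind. Their median retention was 2.23% in Con_sh Exp1 and 1.23% in Con_sh Exp2, 4.21% and 6.48% in the Exp1 knockdown libraries and 0.948% and 0.673% in those of Exp2. Con_sh Exp1 lay above Con_sh Exp2 in 57 of the 70, or 81.4%, against 19 of the 33. Their median log2 difference over control was 1.17 in Exp1 and -0.23 in Exp2. A median of 167.5 boundary reads over 4 libraries stood behind them, 7 had under 30, and at 15 of them the spliced reads differed over 5-fold between libraries. None of the 33 did so.

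An intron of MYL4, an embryonic myosin light chain (chromosome 17, 47213827 to 47219903, plus strand), was retained at 3.27% and 1.52% in the controls of Exp1 and Exp2. It was at 8.77% in sh1 Exp1 and 15.5% in sh2 Exp1, against 2.12% in sh1 Exp2 and 2.68% in sh2 Exp2 (log2 difference 2.45, SE 0.34, adjusted p 4.1e-05 by edgeR). An interval within GMPR, a guanosine monophosphate reductase gene, is annotated on the strand opposite to the gene, and the counts do not separate strands. The GMPR interval was at 17.5% and 4.67% in the controls, 13.8% and 22.3% in Exp1 and 3.70% and 5.14% in Exp2. Its controls differed by about as much as its knockdown libraries, and the log2 difference of effects was 0.12.

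Introns of HSP90AA1 and HSPH1 were more retained in Con_sh Exp1 than in Con_sh Exp2. HSP90AA1, the inducible HSP90 gene, held an intron at 3.90% in Con_sh Exp1 and 1.49% in Con_sh Exp2, at 2.37% and 4.17% in the Exp1 knockdown libraries and at 0.887% and 1.32% in those of Exp2. HSPH1, of the HSP110 family, held 2 called introns, the better supported at 3.25% and 1.13% in the controls, 2.66% and 4.73% in Exp1 and 1.22% and 0.806% in Exp2. The log2 differences of effects were 0.15 for the HSP90AA1 intron and 0.35 for this HSPH1 intron. Without sh1 Exp2, sh2 Exp1 or sh2 Exp2, edgeR's adjusted p was 0.505, 0.43 and 0.051 for the HSP90AA1 intron and 0.23, 0.54 and 0.46 for this HSPH1 intron, so both calls were lost. The other called HSPH1 intron had fewer boundary reads in every library. It was at 0.865% and 0.306% in the controls, 1.11% and 1.85% in Exp1 and 0.285% and 0.238% in Exp2. Its log2 difference was larger between the knockdown experiments, at 2.496 (adjusted p 0.016, edgeR), than between the controls, at 1.494. Its difference of effects did not pass edgeR's test. DNAJA1, an HSP40 gene, held an intron under 0.4% in every library, with 16 to 42 boundary reads in all but sh2 Exp2, which had 7. Its controls were closer, at 0.147% and 0.112%, and its log2 difference of effects was 1.95. The DNAJA1 call was lost without sh2 Exp1 (adjusted p 0.082, edgeR) and without sh2 Exp2 (0.20). Of the exon junction and decay factors on the list of 14 genes of nonsense-mediated decay, MAGOH and UPF3B each held 1 such intron. That of MAGOH was at 2.47% and 2.77% against 0.708% and 0.977%, with controls at 1.10% and 0.548%. That of UPF3B was at 4.16% and 2.44% against 0.426% and 0.344%, with controls at 2.56% and 0.963%. It had 4 and 3 boundary reads in the Exp2 knockdown libraries. The log2 differences of effects were 0.68 (SE 0.67) for MAGOH and 1.65 (SE 1.13) for UPF3B. The MAGOH call was lost when any 1 knockdown library was left out (adjusted p 0.056 to 0.71, edgeR), and the UPF3B call without sh1 Exp1 (0.20), sh1 Exp2 (0.49) or sh2 Exp2 (0.38). LSR, a lipoprotein receptor gene, had an intron at 1.06% and 1.84% against 0.213% and 0.135%, with controls at 0.386% and 0.371%, and its adjusted p by edgeR was 0.052 without sh2 Exp1 and 0.14 without sh2 Exp2.

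Some calls rested on spliced reads that jumped in 1 or a few libraries. LOC105378179 had 3967 and 11363 spliced reads in the controls and 5313 in sh1 Exp2, but 4, 3 and 13 in the other 3 libraries, and FBXL18 had 3002 in sh2 Exp2 against 70 to 120 elsewhere. Of the 7 introns lower in Exp1, those of NOMO3, which has near-identical copies, and LOC102723728 were also lower in the Exp1 control. The log2 difference of effects was 0.11 for LOC102723728 and -1.62 (SE 1.35) for the first NOMO3 intron. That NOMO3 interval is annotated on the strand opposite to the gene. It had 7 to 20 spliced reads in each Exp2 library and 99 to 287 in each Exp1 library. An intron of SKIC2, a helicase of the cytoplasmic exosome, was at 1.42% and 1.17% in the controls of Exp1 and Exp2. In knockdown it was at 1.77% and 2.41% in Exp1 and 15.2% and 17.0% in Exp2. Its log2 difference over control was 0.55 (SE 1.02) in Exp1 and 3.99 (SE 0.82) in Exp2. The SKIC2 controls held only 4 and 7 boundary reads, and the log2 difference of effects, -3.44 (SE 1.49), did not pass edgeR's test. BAG6, EEF1G and PSMD10 stayed under 0.7% in every library.

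**Figure D4:**
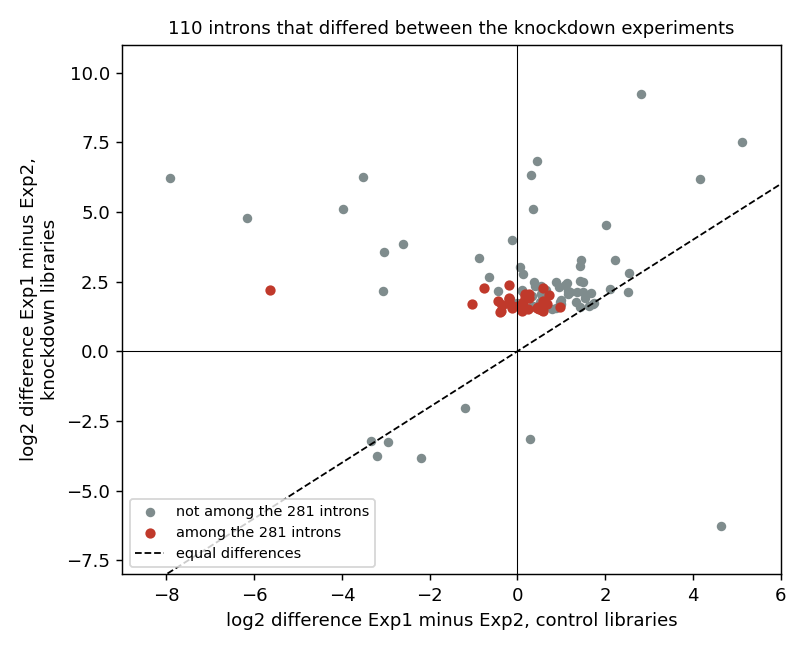
Log2 difference between Exp1 and Exp2 in the knockdown libraries (vertical) against that in the 2 control libraries (horizontal) for the 110 introns that differed between the knockdown experiments, red for those among the 281 more retained introns. Of the 33 red points 19 have a control difference above 0, as do 57 of the 70 other introns that were higher in Exp1.

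By list, genes with an intron higher in the Exp1 than in the Exp2 knockdown libraries numbered 6 of 54 tested for the recalled U12 list (among them XRCC5, WDR41, ZNF207, NOL11 and FRA10AC1), 2 of 14 for nonsense-mediated decay and 2 of 9 for heat shock, beside 84 of all 12143 genes (0.692%). They numbered 0 of 16 for the minor spliceosome and 0 of 14 for 3′ splice site recognition by U2 factors. For the cell cycle they numbered 0 of 25, and for genes with detained introns 0 of 13. The NOL11 intron was not among the introns more retained after knockdown over both experiments. It was at 1.44% and 0.512% in the controls of Exp1 and Exp2. In knockdown it was at 1.80% and 3.15% in Exp1 and at 0.662% and 0.448% in Exp2. The log2 difference between its controls was 1.49, and its log2 difference of effects was 0.62. Over all introns of a list, the median log2 difference was 0.18 for the recalled U12 genes, 0.094 for the minor spliceosome and 0.35 for the erythroid genes, beside 0.14 for all tested introns.

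At the level of genes, the knockdown libraries of Exp1 lay much farther from their control than those of Exp2 from theirs. Among 8345 genes with a mean of at least 10 CPM, 5.03% had a fitted difference over 2-fold between knockdown and control in Exp1, against 0.491% in Exp2. Between the controls it was 2.60% and between the knockdown experiments 1.98%. The libraries of Exp1 were also farther from each other. In pairs within Exp2 the interquartile range of log2 differences was 0.222 to 0.258 and 0.587% to 0.611% of genes differed over 2-fold. In pairs within Exp1 it was 0.477 to 0.551, with 3.59% to 6.88% of genes. The spread of Exp1 is thus also seen between sh1 and sh2, at 3.59%. Con_sh Exp1 also lay apart from the Exp2 knockdown libraries, at 3.13% for each, where Con_sh Exp2 was at 0.611%. From Con_sh Exp1, sh1 Exp1 differed at 4.54% and sh2 Exp1 at 6.88%. From the same hairpin in Exp2 they differed less, at 1.61% and 3.49%. The share for knockdown against control in Exp1 thus also holds the distance of its single control library, which was not separated from it.

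By edgeR's quasi-likelihood test 0 of 17597 genes differed between the knockdown experiments (0.0% called, 2246 at an unadjusted p under 0.05, lowest adjusted p 0.33). The count was also 0 for the controls (1451 unadjusted), for knockdown against control in Exp1 (2566) and in Exp2 (579), and for the difference of effects (897). DESeq2, run as an alternative on the same counts, called 277 genes higher and 201 lower in the Exp1 knockdown libraries (3.07%), 881 in Exp1 against its control (6.21%), 27 in Exp2 against its control (0.160%), 159 between the controls (1.02%) and 45 for the difference of effects (0.277%). With the hairpin as a block edgeR called 232 genes between the knockdown experiments. Without sh1 Exp1 it called 1597, without sh2 Exp1 57, without sh1 Exp2 1 and without sh2 Exp2 3, so the gene results below are values and DESeq2 calls, not calls of the main test.

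Of 21 erythroid genes, 20 had a higher fitted level in the Exp1 than in the Exp2 knockdown libraries, with a median log2 difference of 0.95 that was 0.29 without sh2 Exp1. In Exp1 the summed level of 21 erythroid genes was 6930 CPM in the control, 17132 CPM in sh1 and 30919 CPM in sh2. In Exp2 it was 10027 CPM in the control, 8889 CPM in sh1 and 13228 CPM in sh2. The median log2 difference of the list was -0.51 between the controls and 1.5 for the difference of effects. Over all genes the medians were 0.024 between the knockdown experiments, 0.00046 between the controls and 0.0090 for the difference of effects. DESeq2 called 7 of the 21 higher in the Exp1 knockdown libraries and 0 lower (1.78% of all genes were called higher), and 11 of 21 raised over control in Exp1 (3.64% of all genes) against 0 of 21 in Exp2 (0.0769%). In 13 of 21 genes both Exp1 knockdown libraries lay above both of Exp2, against 23.8% of all genes.

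The globins carried the highest levels. HBG2, a fetal gamma globin, was at 1376 and 2087 CPM in the controls of Exp1 and Exp2, 4441 CPM in sh1 Exp1, 5775 CPM in sh2 Exp1, 1958 CPM in sh1 Exp2 and 3310 CPM in sh2 Exp2. HBG1 followed with 3741 and 4479 CPM in the Exp1 knockdown libraries and 1672 and 2664 CPM in those of Exp2. HBA1, an alpha globin, was at 473 and 1084 CPM in the controls, 1758 and 4107 CPM in Exp1 and 767 and 1190 CPM in Exp2. HBA2 gave nearly the same values in each library, and the near-identical pairs HBA1 with HBA2 and HBG1 with HBG2 cannot be told apart with certainty, so each pair counts as 1 observation. HBE1, the embryonic epsilon globin, was at 330 and 266 CPM in the controls and at 1431, 4824, 190 and 804 CPM in sh1 Exp1, sh2 Exp1, sh1 Exp2 and sh2 Exp2.

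Red cell surface and regulatory genes were split. GYPB, a red cell membrane protein gene, was at 174 and 228 CPM in the controls, 420 and 738 CPM in the Exp1 knockdown libraries and 279 and 259 CPM in those of Exp2. TAL1, a haematopoietic transcription factor, was at 38.3 and 47.1 CPM in Exp1 and 19.4 and 28.2 CPM in Exp2, with controls at 30.8 and 21.0 CPM. DESeq2 called both higher in Exp1. GATA1, the main erythroid transcription factor, was not called, at 180 and 259 CPM against 201 and 199 CPM, nor was TFRC, the transferrin receptor, at 899 and 1166 CPM against 1177 and 1245 CPM.

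The hairpins differed within Exp1. SLC4A1, the red cell anion exchanger, was at 92.3 CPM in sh2 Exp1 and at 3.79 to 5.51 CPM in every other library, and EPB42, a membrane skeleton protein gene, was at 23.3 CPM in sh2 Exp1 and under 1 CPM elsewhere. ALAS2, the erythroid enzyme that starts haem synthesis, was at 48.9 CPM in sh1 Exp1 and 165 CPM in sh2 Exp1, against 13.0 and 26.1 CPM in Exp2. Without sh2 Exp1 the median difference of effects of the erythroid list was 0.80. Without sh1 Exp1 the median log2 difference between the knockdown experiments was 1.26 and that of effects 1.79. The megakaryocytic list had 6 measured genes of 10, with a summed level of 113 and 107 CPM in the Exp1 knockdown libraries, 90.1 and 79.1 CPM in those of Exp2 and 49.2 and 48.0 CPM in the controls. The sign of its median difference of effects, 0.21, changed when sh1 Exp1, sh2 Exp1 or sh2 Exp2 was left out.

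Chaperone genes lay on the other side. All 9 measured heat shock genes had a log2 difference below 0 between the knockdown experiments (median -0.39), and DESeq2 called 2 lower in Exp1 and 0 higher (1.29% of all genes were called lower). HSPA8, the constitutive HSP70 gene, was at 1650 and 1828 CPM in the controls, 1024 CPM in sh1 Exp1, 1022 CPM in sh2 Exp1, 1804 CPM in sh1 Exp2 and 1827 CPM in sh2 Exp2. HSPH1 was at 311 and 284 CPM in the controls, 157 and 163 CPM in Exp1 and 263 and 303 CPM in Exp2. In both genes the Exp1 knockdown libraries were the lowest of the 6, and the 2 hairpins gave almost equal values. HSP90AA1, at 976 and 728 CPM against 1265 and 1274 CPM, was not called. Without sh1 Exp1 the median of the list was -0.79. The hairpins of Exp1 differed over the list. Its median level was 327 CPM in sh1 Exp1 and 177 CPM in sh2 Exp1. It was 303 and 309 CPM in the Exp2 knockdown libraries and 311 and 331 CPM in the controls. The summed level of the list was 7031 CPM in sh1 Exp1 and 5685 CPM in sh2 Exp1, against 8436 and 8834 CPM in Exp2. The controls summed to 7642 and 8427 CPM.

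The unfolded protein response list had a median of -0.47, with 11 of 12 genes below 0 and 9 of 12 with both Exp1 knockdown libraries below both Exp2 knockdown libraries (23.4% of all genes did so). HSPA5, the BiP chaperone of the endoplasmic reticulum, was at 499 and 419 CPM in the controls, 308 and 322 CPM in Exp1 and 484 and 536 CPM in Exp2. MANF, a secreted factor of the same response, was at 48.1 and 38.5 CPM, 21.6 and 27.3 CPM, and 40.0 and 44.2 CPM in the same order. DESeq2 called these 2 lower in Exp1 and 0 of the list higher (1.29% of all genes were called lower). For the difference of effects DESeq2 called 0 genes of either list, with adjusted p of 0.44 for HSPA8, 0.16 for HSPH1, 0.12 for HSPA5 and 0.27 for MANF.

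**Figure D5:**
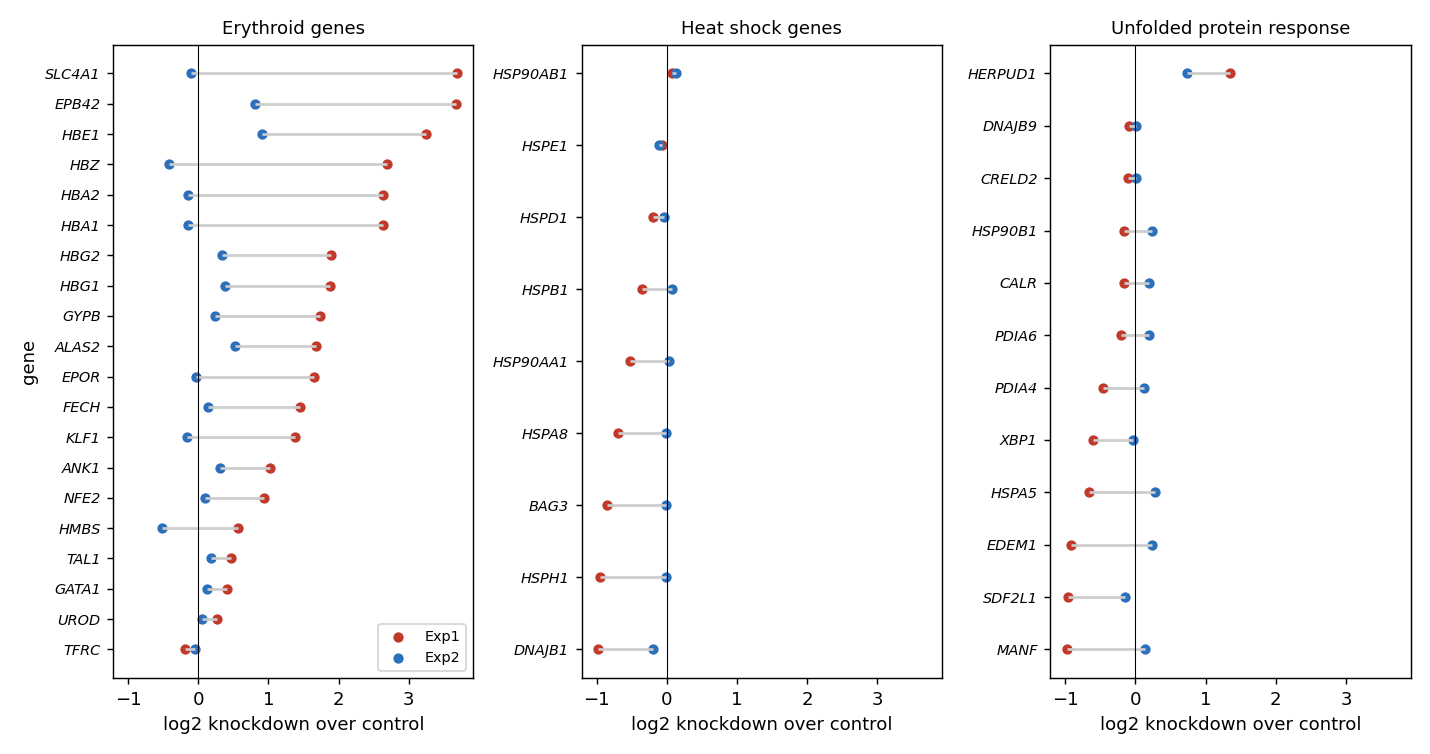
Log2 difference in CPM between knockdown and control for genes of 3 lists, red for Exp1 and blue for Exp2, joined by a line. Of the 20 erythroid genes plotted 19 lie above 0 in Exp1 and 12 in Exp2, while 1 of 9 heat shock genes and 1 of 12 unfolded protein response genes lie above 0 in Exp1.

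Stress genes controlled by ATF4 gave a mixed picture. DDIT4, an inhibitor of mTORC1 signalling, was at 14.6 and 7.20 CPM in the controls, 71.8 and 83.9 CPM in Exp1 and 28.3 and 30 CPM in Exp2. DDIT3, the CHOP transcription factor gene, was at 17.5 and 9.55 CPM, 22 and 22.1 CPM, and 13.0 and 13.1 CPM. TRIB3, a pseudokinase of the same response, was at 157 and 54.0 CPM in the controls, 124 and 141 CPM in Exp1 and 68.7 and 80.5 CPM in Exp2. DESeq2 called these 3 of 16 list genes higher in the Exp1 knockdown libraries (1.78% of all genes were called higher), and the controls differed the same way in all 3. The median log2 difference of the list was 0.32 between the knockdown experiments, -0.11 between the controls and 0.48 for the difference of effects. The minor spliceosome list had 0 of 16 genes called, and its summed level was 706 and 701 CPM in Exp1 and 751 and 757 CPM in Exp2. For cell cycle genes it was 0 of 25, with a median of -0.22 between the knockdown experiments and -0.35 between the controls.

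Of the genes with the smallest p between the knockdown experiments, some followed the controls and some did not, and none passed edgeR's test (adjusted p 0.33 for each). TINAGL1, a matricellular protein gene, was at 6.2 and 3.34 CPM in the controls, 45.5 and 54.5 CPM in Exp1 and 7.40 and 8.39 CPM in Exp2. DAPP1, a signalling adaptor gene, was at 1.93 and 2.55 CPM, 15.5 and 20.6 CPM, and 5.12 and 4.59 CPM. Both had a DESeq2 adjusted p under the threshold for the difference of effects, 0.0063 and 0.0066. CYP1A1, a cytochrome P450 gene, was at 19.3 and 6.19 CPM in the controls, 29.0 and 32.4 CPM in Exp1 and 5.89 and 6.91 CPM in Exp2. RSAD2, the interferon-induced viperin gene, was at 16.4 and 4.74 CPM in the controls, 17.4 and 18.6 CPM in Exp1 and 6.62 and 6.22 CPM in Exp2, so its controls differed about as much as its knockdown libraries. GNG11, ABLIM1, ABCA5 and TFPI were also higher in the Exp1 than in the Exp2 controls, at log2 differences of 1.49, 0.90, 0.79 and 0.99, and LOC102724624 was almost undetected in every Exp2 library.

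Among genes lower in Exp1, OTULINL, a relative of the deubiquitinase OTULIN, was at 14.3 and 8.56 CPM in the controls, 1.71 and 2.15 CPM in the Exp1 knockdown libraries and 9.90 and 9.71 CPM in those of Exp2. GMFG, an actin regulator, was at 83.1 and 56.5 CPM, 24.1 and 24.4 CPM, and 61.5 and 56.8 CPM. These 2 passed DESeq2's test of the difference of effects, with log2 values of -3.09 (adjusted p 7.5e-07) and -1.84 (adjusted p 3.4e-06). SMAGP and LCP2, a small membrane protein gene and a T cell adaptor gene, had nearly equal controls and knockdown levels of 10.8 and 10.4 against 25.2 and 21.5 CPM, and of 64.2 and 53.6 against 117 and 135 CPM. KHK, ARHGAP15, SERPINE2, CHORDC1, LOC102724210 and ARHGAP22 were lower in the Exp1 control too, by log2 differences of -0.65 to -2.21. GOLGA1, TMEM184A and HR ranked high for the difference of effects, and in each 1 control library stood apart. GOLGA1, a Golgi protein gene, was at 177 CPM in Con_sh Exp2 and at 36.5 to 57.3 CPM elsewhere.

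Genes that hold a more retained intron had a median level difference close to that of the other genes. Their median log2 difference between the knockdown experiments was -0.0055 over 223 genes, against 0.024 for the other 17374 genes, and 112 of 223 were below 0. DESeq2 called 9 of them higher (4.04%) and 4 lower (1.79%) in the Exp1 knockdown libraries, and 268 (1.54%) and 197 (1.13%) of the other genes. Spliced reads of PARP1 were at 661 and 944 CPM in the controls, 513 and 544 CPM in Exp1 and 794 and 940 CPM in Exp2. DESeq2 called 1 of the 55 recalled U12 genes higher and 1, PARP1, lower in the Exp1 knockdown libraries, beside 1.78% and 1.29% of all genes. Spliced reads leave out unspliced molecules, so they are not total transcript levels.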

How the data were processed

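RNA-seq tables of 6 K562 libraries were used. Per the file headers, the authors deposited, for each library, counts of intron boundary reads (A1, A2) and of spliced reads (Exon), a covered fraction between 0 and 1, and a percent named MSI, which equals the retention used here to within 2.8e-14. The sources used here do not give the aligner, counting program or annotation. The build named is hg19, per the submitters' processing notes, yet 95.6% of introns lay inside RefSeq genes on GRCh38, against 62.6% and 62.9% after shifts of 100 kb. Gene names come from that table, and positions are as deposited, with starts counted from 1. No genome was used, so no splice site sequence is shown.

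edgeR 4.0.16 (R 4.3.3) tested boundary against spliced counts, with library as a factor and the experiment and knockdown cells by read type, at the default settings of that version. Gene sums used TMM and filterByExpr. DESeq2 1.42.0 was an alternative. Introns with spliced counts repeated from a gene within 500000 nt were left out of gene sums. The fits were tested on simulated data. The p-values between and within experiments rest on the spread between sh1 and sh2, 2 libraries per experiment. That spread holds the difference between the hairpins, and part of it may be technical. The p-values for knockdown over both experiments rest on the spread among all knockdown and among both control libraries, which holds the difference between experiments. Each experiment is 1 unit.

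Same-numbered libraries deviated together over genes (correlations of 0.28, 0.30 and 0.44) and less over introns (0.050, 0.11 and 0.10), and the numbers come from the titles. No 2 libraries agreed so closely as to be 1 library deposited again: at least 49 of 8345 genes differed over 2-fold in each pair.

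Named were ZRSR2; introns and genes with the smallest p in each direction (up to 10) between the knockdown experiments and for the difference of effects; 12 introns of recalled U12 genes and 8 of other genes with the smallest p for knockdown; and list genes. Members, lists and rules were chosen with earlier results of these data known. Results for some items are not reported here.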

Additional observations from a re-analysis of the deposited data

Results flagged for a closer look

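The difference of knockdown effects between the experiments passed edgeR's quasi-likelihood test at 7 introns (0.006% of 116705, 4950 at an unadjusted p under 0.05), and 0 of them were among the 281 introns retained after knockdown. Each value here is the log2 effect in Exp1 minus that in Exp2. An intron of ELP3, the catalytic subunit of Elongator, had a value of 14.12, with 69 and 50 boundary reads in sh1 and sh2 of Exp1, 0 and 1 in those of Exp2, 0 in Con_sh Exp1 and 40 in Con_sh Exp2. The introns of CFHR3 (10.93), NPIPP1 (9.77) and CSNK1A1 (8.50) had 0 or 1 boundary reads in Con_sh Exp1, against 5, 18 and 27 in Con_sh Exp2. CFHR3 and NPIPP1 have close copies, so their reads may be split. The fitted sizes at introns with a count of 0 depend on the prior count.

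Overlapping introns of RPS2, a ribosomal protein gene, had values of -3.72 and -3.56. Con_sh Exp2 held 1335 and 1392 spliced reads there, against 55 to 133 in the other 5 libraries, and its retention was 45.3% and 44.8% against 87.0% to 92.5%. An unnamed intron on chromosome 16 at 29541711, with a value of -4.42, had 793 spliced reads in Con_sh Exp2 and 27 to 62 elsewhere. What made these libraries differ was not tested.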

How the results depend on the processing

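Alternatives were counted in introns or genes called. For the knockdown experiments against each other (110 introns in the main result), calls numbered 213 with a mean of at least 20 reads, 2 with at least 200, 0 with the smaller boundary count doubled, 0 with a covered fraction of at least 0.95, 9 after centring, 650 with the hairpin as a block, 0 with the newer quasi-likelihood method, and 16 to 276 leaving out 1 library. In the same order the difference of effects (7) gave 20, 1, 0, 0, 4 (1 higher, 3 lower, against 4 and 3), 19 and 0, and 4 to 26. The controls (9) gave 25, 3, 0 and 5, then 65 with the block, 0 with the newer method, and 9 to 30. Knockdown in Exp1 (473) gave 5 with the smaller boundary count doubled, 725 with the block, 176 with the newer method, and 449 to 565 leaving out 1 library. Knockdown in Exp2 (144) gave 69 with at least 200 reads, 0 with the smaller boundary count doubled, 90 with the covered fraction, 258 with the block, 6 with the newer method, and 68 to 226. Knockdown over both (288) gave 5 with the smaller boundary count doubled, 477 with the experiment number as a replicate block, and 42 to 395. The newer method, the handling of repeated counts and the medians of lists under other settings were added after seeing the data.

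Of the introns more retained over both, the share with a positive difference of the Exp1 over the Exp2 knockdown libraries was 96.2% to 100% under every alternative run, each with its own set. Their median retention with the smaller boundary count doubled was 23.0% and 16.8% in Exp1 and 9.73% and 9.46% in Exp2, with controls at 1.60% and 1.36%. For genes (0 by edgeR in each comparison), DESeq2 gave 478 between the knockdown experiments, 45 for the difference of effects, 159 between the controls, 881 in Exp1, 27 in Exp2 and 163 over both. The replicate block gave 232 between the knockdown experiments and 261 in Exp1 and changed no other gene count. Leaving out 1 library gave 0 to 1597, 0 to 10, 0 to 1, 0 to 1134, 0 to 9 and 0 to 1 in the same order. Size factors, filters, the busiest intron and repeated counts left every gene count at 0.

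Reversals were few: the HBBP1 intron, less retained with knockdown, had a log2 difference between the knockdown experiments of 0.020 without sh2 Exp1 (-0.70 in the main result, -1.35 without sh1 Exp1), and the megakaryocytic median difference of effects was -0.31 without sh1 Exp1, -0.21 without sh2 Exp1, -0.019 without sh2 Exp2 and 0.12 without sh1 Exp2. The cause of these changes was not tested. Each experiment has 2 knockdown libraries and 1 control, which limits what can be said of single introns and genes.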
